A study of Homo sapiens with 2 samples.

Results

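Histone chaperones are the proteins that carry histones outside nucleosomes, hand them to newly made or disturbed DNA and take them off again. The sgRNAs described here target such chaperones and the genes of the histone variant H3.3, 19 genes together. They were found by gene symbol alone, as every listed sgRNA against HIRA, UBN1, UBN2, CABIN1, ASF1A, ASF1B, ATRX, DAXX, CHAF1A, CHAF1B, NASP, SUPT16H, SSRP1, HJURP, NAP1L1, NAP1L4, ANP32E, H3F3A or H3F3B. This gave 71 of the 74336 distinct sgRNAs in the count table, against 19 of its 19112 genes. For 16 of the genes 4 sgRNAs are listed, HJURP and H3F3B have 3 each, and H3F3A has 1.

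The screen asked which knockouts lower the fusion oncoprotein EWSR1::FLI1 in A673, a human Ewing sarcoma cell line. All cells came from a single knock-in clone in which tdTomato is joined to the FLI1 end of EWSR1::FLI1, and they also carried Cas9 and EGFP, the latter as a control for general loss of protein. They received the Brunello sgRNA library by lentivirus at an MOI of 0.3, were kept in 2 µg/ml puromycin for 12 days and without it for 3 days, and either stayed unsorted or were sorted for low tdTomato with high EGFP (about 7% of cells) and expanded. There is 1 sequenced library of each population, with 10483144 reads in the unsorted and 1455322 in the sorted one, so no difference below has a replicate check and the tests compare these libraries, not the conditions. As a check of the sort, 2 of the 3 listed EWSR1 sgRNAs were enriched by the thresholds given below, with 29 and 27 unsorted and 28 and 50 sorted reads. The remaining EWSR1 sgRNA, with 264 unsorted and 19 sorted reads, went the other way at an odds ratio of 0.518. At least 2 enriched sgRNAs were found for 18.8% of all genes. All 4 FLI1 sgRNAs, with 10, 15, 72 and 153 unsorted reads, had 0 sorted reads, so the check was mixed. The counts come from genomic DNA and hold no expression, so the cell type on the labels could not be checked against marker genes.

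H3.3 is the form of histone H3 that is built into chromatin outside DNA replication, at active genes, regulatory elements and repeats. The HIRA complex (HIRA with UBN1 or UBN2 and CABIN1, fed with histones by ASF1A) places it at active chromatin, whereas DAXX, together with the remodeler ATRX, places it at telomeres and other heterochromatin. CAF-1, with its subunits CHAF1A and CHAF1B, deposits the replication-dependent H3 behind the fork, and FACT (SUPT16H and SSRP1) takes nucleosomes apart and rebuilds them during transcription and replication. Among the other members, HJURP brings CENP-A to centromeres, NAP1L1 and NAP1L4 bind H2A-H2B, ANP32E removes H2A.Z, and NASP protects the soluble pool of H3-H4.

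The sgRNAs that carry the main results are those of the 3 genes with at least 2 enriched sgRNAs, HIRA, ATRX and CHAF1B, written 5′ to 3′ as listed in the deposited table. The last 12 of the 20 bases, next to the PAM in the target and least tolerant of mismatches for Cas9, are in capitals.
HIRA sgRNA a: gggttgacATGGGACCCTGT
HIRA sgRNA b: atgtctgaAACGGCCGCTGG
HIRA sgRNA c: tgtgtgcgGTGGTCAAACAG
HIRA sgRNA d: gagcctagCCATCATGACCG
ATRX sgRNA a: gaaaatctCAAAAAACGCGG
ATRX sgRNA b: cttaccaaGGCCCATACAGT
ATRX sgRNA c: atgatttaAAGACTCAGGCG
ATRX sgRNA d: aattagtgCGGAATAAGAGT
CHAF1B sgRNA a: agactgagTTTCACTCCCGA
CHAF1B sgRNA b: ttatgtccAAGGAGTAACCT
CHAF1B sgRNA c: agatgtgtATGATATTTGCT
CHAF1B sgRNA d: attggacaAAAATTCCACGA

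HIRA, the scaffold of its complex, was kept in the sorted library where most sgRNAs of its partners were not. All 4 HIRA sgRNAs had sorted reads and an odds ratio above 1, and 3 of them were enriched. Among the 12 sgRNAs against UBN1, UBN2 and CABIN1, 1 was enriched and 9 had 0 sorted reads, and all 4 sgRNAs against ASF1A had 0 sorted reads. In the library 20.8% of all sgRNAs were enriched and 57.6% had 0 sorted reads, so most sgRNAs in the library were lost too. Here an sgRNA is called enriched at an odds ratio (its odds among sorted reads over its odds among unsorted reads) of at least 2 with an adjusted p under 0.05 from a two-sided Fisher's exact test, and depleted at an odds ratio of at most 0.5 with the same p. Limits in parentheses are exact 95% limits of the odds ratio, and the exact test is this one throughout. Whether HIRA differs from its partners beyond what sgRNAs of unrelated genes show was not tested.

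Over all 71 sgRNAs, 14 were enriched (19.7%, Wilson 95% interval 12.1 to 30.4%), where 20.8% of all sgRNAs in the library were. Depletion was called for 31 sgRNAs (43.7%), against 51.7% of the library, and 44 (62.0%, 50.3 to 72.4%) had 0 sorted reads, against 57.6% of the library. The Wilson intervals treat the 71 sgRNAs as independent draws, although they fall in 19 genes and share 1 pair of libraries. The median odds ratio was 0 both over these sgRNAs and over the library, because in each case most sgRNAs were missing from the sorted reads. Per gene, at least 1 sgRNA was enriched for 10 of 19 genes (59.3% of all genes), at least 2 for 3 genes (18.8% of all genes) and at least 3 for 1 gene (2.84% of all genes). For 5 genes, UBN2, ASF1A, DAXX, CHAF1A and HJURP, every listed sgRNA had 0 sorted reads, as did 14.6% of all genes. As counts of the set, the shares of enriched and of lost sgRNAs lay near those of the library.

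HIRA sgRNA a had 176 unsorted and 159 sorted reads, which gave an odds ratio of 6.51 (95% limits 5.22 and 8.11, exact test with adjusted p = 1.50e-54). HIRA sgRNA b had 119 and 41 reads, an odds ratio of 2.48 (95% limits 1.70 and 3.57, exact test with adjusted p = 6.52e-06). HIRA sgRNA c had 126 and 42 reads, an odds ratio of 2.40 (95% limits 1.65 and 3.43, exact test with adjusted p = 1.04e-05). HIRA sgRNA d, with 185 and 44 reads, had an odds ratio of 1.71 (95% limits 1.2 and 2.39, exact test with adjusted p = 3.44e-03), which passed the test but not the threshold of 2. The interval of sgRNA a does not overlap those of the other HIRA sgRNAs, and it alone gave 55.6% of the 286 sorted reads of the gene. In the whole library 337 sgRNAs (0.453%) had at least as many sorted reads as it. The other HIRA sgRNAs, with 41 to 44 sorted reads, were close to the median of 40 over all sgRNAs that had any. HIRA was 1 of 2 genes among the 16 with 4 listed sgRNAs to keep all 4 in the sorted library, NASP being the other, where 4.66% of all such genes did. It was the only one of the 16 with an odds ratio above 1 for all 4 sgRNAs, as were 1.04% of all such genes. The study had picked HIRA from these same libraries, so its counts are not independent evidence for it. Apart from the screen, the study reported that knockdown of HIRA by separate shRNAs lowered the fusion protein and its mRNA. The study also listed every HIRA sgRNA as identified. The thresholds used here are those that the study's methods state. By them sgRNA d, at an odds ratio of 1.71, was not enriched, and the reason for this difference was not tested. With Bonferroni adjustment in place of Benjamini-Hochberg only sgRNA a was enriched, and with a negative binomial test, whose spread was set on sgRNAs against olfactory receptor genes, 0 HIRA sgRNAs were enriched (1 at an unadjusted p under 0.05).

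Of the HIRA partners, UBN1, a ubinuclein that binds H3.3 directly, had its top sgRNA at 110 unsorted and 69 sorted reads, which gave an odds ratio of 4.52 (95% limits 3.29 and 6.16, exact test with adjusted p = 2.64e-18). Another UBN1 sgRNA had 65 and 6 reads, an odds ratio of 0.665 (0.235 to 1.53), and those with 29 and 45 unsorted reads had 0 sorted reads. UBN2, the paralog of UBN1, had 31, 52, 74 and 76 unsorted reads and 0 sorted reads throughout, and all 4 were depleted. CABIN1, which stabilizes the complex, had sgRNAs with 446, 112, 46 and 3 unsorted reads, of which only that with 112 had any sorted reads, namely 3. Together the 12 sgRNAs against these partners had 1089 unsorted and 78 sorted reads. ASF1A, the H3-H4 chaperone that hands histones to HIRA, had 257, 65, 13 and 8 unsorted and 0 sorted reads. The most abundant lost sgRNAs of CABIN1 and ASF1A are shown because they bound the loss most tightly.
CABIN1 sgRNA: tgaaatgaTAATCAGCCAGG
ASF1A sgRNA: ctaattacTTGTACCTATCG

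By the limit of its interval, the CABIN1 sgRNA was at least 16.7-fold lower (upper 95% limit 0.0598, 20.6-fold with 0 set to 3 reads, exact test with adjusted p = 1.70e-24). The ASF1A sgRNA was at least 9.6-fold lower (upper 95% limit 0.104, 11.9-fold with 0 set to 3 reads, exact test with adjusted p = 3.76e-14). ASF1B, the ASF1 form linked to dividing cells, went in both directions. Its sgRNA atcccagaGACTGATGCCGT was enriched, with 35 unsorted and 21 sorted reads and an odds ratio of 4.32 (95% limits 2.39 and 7.63, exact test with adjusted p = 2.78e-06). Another ASF1B sgRNA, with 262 and 13 reads, was depleted at an odds ratio of 0.357 (0.188 to 0.622). The last pair had 83 and 2 unsorted reads and 0 sorted reads.

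ATRX and DAXX, which act together, differed in their read counts. ATRX sgRNA a had 52 unsorted and 64 sorted reads, which gave an odds ratio of 8.87 (95% limits 6.05 and 13.0, exact test with adjusted p = 2.88e-27), the highest among the 71 apart from the CHAF1B sgRNA described next. ATRX sgRNA b had 68 and 40 reads, an odds ratio of 4.24 (95% limits 2.79 and 6.35, exact test with adjusted p = 1.37e-10). Both other ATRX sgRNAs had 0 sorted reads. Of these, sgRNA c, with 156 unsorted reads, was at least 5.8-fold lower (upper 95% limit 0.172, 7.22-fold with 0 set to 3 reads, exact test with adjusted p = 1.22e-08), and sgRNA d, with 75, at least 2.75-fold lower (upper 95% limit 0.363, 3.47-fold with 0 set to 3 reads, exact test with adjusted p = 2.13e-04). The limits of the enriched ATRX sgRNAs do not overlap those of the lost ones. DAXX, the H3.3-binding partner, had 125, 121, 47 and 13 unsorted reads and 0 sorted reads in each case, and 3 of its sgRNAs were depleted.

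CHAF1B, the middle subunit of CAF-1, had the most extreme sgRNA of the set. CHAF1B sgRNA a had 0 unsorted and 67 sorted reads, at least 127-fold higher among sorted reads by its lower 95% limit (161-fold with 0 set to 3 reads, exact test with adjusted p = 9.11e-60). It is 1 of 230 sgRNAs in the library listed with 0 unsorted reads, which all had sorted reads, with a median of 30.5, and 21 of which had at least 67. The table lists 0 sgRNAs without a read in either library, so an sgRNA at 0 unsorted reads could be listed only through its sorted reads. CHAF1B sgRNA b had 98 and 66 reads, an odds ratio of 4.85 (95% limits 3.50 and 6.70, exact test with adjusted p = 1.10e-18). The sgRNAs c and d had 77 unsorted reads each and 0 sorted reads, and each was at least 2.83-fold lower (upper 95% limit 0.353, 3.56-fold with 0 set to 3 reads, exact test with adjusted p = 1.40e-04). With at least 30 unsorted reads required of an sgRNA, CHAF1B had 1 enriched sgRNA.

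CHAF1A, the large subunit of CAF-1, had 194, 19, 13 and 9 unsorted reads and 0 sorted reads. Its sgRNA agtcatcaTTGATTTGACAG, with 194, was at least 7.23-fold lower (upper 95% limit 0.138, 8.98-fold with 0 set to 3 reads, exact test with adjusted p = 1.05e-10), while the others had too few unsorted reads for a loss to be called. In these libraries 0 sorted reads were called depleted from 31 unsorted reads upward and not at 30 or fewer. Of the 44 sgRNAs with 0 sorted reads, 15 were at or below that limit, so for them a loss was not detectable at this depth.

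In FACT, 6 of 8 sgRNAs had 0 sorted reads (library 57.6%), as in ASF1, CAF-1 and ATRX with DAXX, and 1 was enriched (library 20.8%). The enriched sgRNA, against SUPT16H, is tgacgtgtATAACGCTGTCA, with 81 unsorted and 57 sorted reads and an odds ratio of 5.07 (95% limits 3.55 and 7.20, exact test with adjusted p = 6.40e-17). The other SUPT16H sgRNAs had 132, 35 and 1 unsorted reads and 0 sorted reads, and that with 132, atataccaTCGCTGTAAAGG, was at least 4.9-fold lower (upper 95% limit 0.204, 6.11-fold with 0 set to 3 reads, exact test with adjusted p = 1.76e-07). SSRP1 had an sgRNA with 296 and 48 reads, an odds ratio of 1.17 (0.842 to 1.59), while those with 46, 41 and 13 unsorted reads had 0 sorted reads. The SSRP1 sgRNAs with 46 and 41 reads share bases, the last 6 of cgaatgtcATAACGACCACG being the first 6 of accacgagCAAAGTTGACAA, a pair shown for this overlap after its values were seen. No other pair of sgRNAs of 1 gene shared 6 or more bases end to end.

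Among the remaining chaperones, NASP was the evenly kept one. Its sgRNAs had 314, 234, 191 and 54 unsorted reads and 43, 57, 33 and 35 sorted reads, with odds ratios of 0.986, 1.75, 1.24 and 4.67, and only the last was enriched (95% limits 2.96 and 7.28, exact test with adjusted p = 3.10e-10). NAP1L1 had 0 enriched sgRNAs, with 317, 251 and 175 unsorted and 48, 55 and 43 sorted reads for those that were kept and odds ratios from 1.09 to 1.77. Its last sgRNA, caccaacaGGATACATTGAA, had 141 unsorted and 0 sorted reads and was at least 5.24-fold lower (upper 95% limit 0.191, 6.52-fold with 0 set to 3 reads, exact test with adjusted p = 5.36e-08). NAP1L4 had 1 enriched sgRNA, with 115 and 58 reads and an odds ratio of 3.63 (2.60 to 5.02), 1 with 46 and 6 reads at 0.940 (0.328 to 2.21), and a pair with 130 and 51 unsorted and 0 sorted reads.

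ANP32E had a single sgRNA with sorted reads, taattgccTGTGTGTCAATG, with 151 unsorted and 107 sorted reads. Its odds ratio was 5.10 (95% limits 3.95 and 6.58, exact test with adjusted p = 8.58e-31), and the other ANP32E sgRNAs, with 114, 73 and 8 unsorted reads, had 0 sorted reads. HJURP had 40, 34 and 1 unsorted reads and 0 sorted reads, and the first pair was depleted (exact test with adjusted p = 0.0168 and 0.0238). Thus for 7 of the 19 genes exactly 1 sgRNA was enriched, where 59.3% of all genes had at least 1 and 18.8% at least 2. In ANP32E, SUPT16H and H3F3B that sgRNA gave all sorted reads of the gene.

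H3F3A and H3F3B, now named H3-3A and H3-3B, encode the same H3.3 protein from separate genes, so the knockout of either leaves the other. Their sgRNAs are shown because few are listed and because 1 of them resembles an sgRNA of another histone gene. The H3F3A sgRNA and H3F3B sgRNA c were added after their values were seen.
H3F3A sgRNA: agagggcgCACTCTTGCGAG
H3F3B sgRNA a: aagcgctcCCTCTACCGGCG
H3F3B sgRNA b: tgcgctctGAAACCTCAGGT
H3F3B sgRNA c: actgctcgTAAGTCCACCGG

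The H3F3A sgRNA had 130 unsorted and 36 sorted reads, which gave an odds ratio of 1.99 (95% limits 1.34 and 2.90, exact test with adjusted p = 8.58e-04). It lay just under the threshold of 2 and counted as enriched when the libraries were scaled on olfactory receptor sgRNAs. H3F3B sgRNA a had 67 and 45 reads, an odds ratio of 4.84 (95% limits 3.24 and 7.16, exact test with adjusted p = 3.76e-13). H3F3B sgRNAs b and c had 10 and 1 unsorted reads and 0 sorted reads, and neither allows a statement on loss. H3F3B sgRNA c differs from an sgRNA listed for HIST1H3G, a replication-dependent H3 gene, at 2 bases, and it is the only one of the 71 with another listed sgRNA within 3 mismatches. Across the library 2072 sgRNAs (2.79%) have such a neighbor on the same strand, and the median unsorted count was 5 among them and 107 among the rest. The authors' mapping allowed 3 mismatches and kept only reads with a single match. Its part in the low count of H3F3B sgRNA c was not tested.

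Before the sort, the chaperone sgRNAs had a lower median than the library, a difference given without a test. It was 73 unsorted reads, against 103 over all sgRNAs, with a range from 0 to 446, and 27 of the 71 lay above the library median. By the median of its sgRNAs, 15 of the 19 genes were under the median of all genes (106.5) and 9 under their lower quartile, with CHAF1A (16 reads), H3F3B (10), HJURP (34) and ASF1A (39) lowest. NAP1L1 (213) and NASP (212.5) were highest, above 87.3% and 87.2% of all genes. The 19 sgRNAs against FACT, CAF-1 and HJURP, which serve replication, transcription and chromosome segregation, had a median of 40 unsorted reads, and 15 of them had 0 sorted reads. The other 52 had a median of 75.5, and 29 of them had 0 sorted reads. Over the library 57.6% of sgRNAs had 0 sorted reads. This pooling was not part of the planned grouping by complex, and the contrast was not tested. The other group also holds ASF1B, which is linked to dividing cells. The library as it was before transduction was not analysed here, so fewer copies at the start and loss of cells in culture cannot be told apart.

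The sequences themselves had a median GC content of 45%, against 50% over the library. GC content and unsorted reads had a Spearman's rho of -0.36 over the 71 sgRNAs and -0.03 over the library, as a description across sgRNAs that share 1 library and, within a gene, a target. The 22 sgRNAs with at least 55% GC had a median unsorted count of 37.5, and the other 49 one of 77, while over the library the corresponding medians were 99 and 106. In the last position, next to the PAM, 56.3% of the chaperone sgRNAs and 55.4% of all sgRNAs had a G. None of the 71 was found in the promoter windows of its own gene in RefSeq (GRCh38.p14), which reach 50 bases past the start site.

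Sorted counts varied little with unsorted counts. Of the 27 chaperone sgRNAs seen after the sort the median was 44 reads, and 16 of them lay between 22 and 61, the quartiles over all sgRNAs with sorted reads. For these 27, the rho of unsorted with sorted reads was 0.10, and over the library it was 0.17. The odds ratio was lower at higher unsorted counts, with a rho of -0.42 over the 26 that also had unsorted reads and -0.60 over the library, where the unsorted count is itself part of the odds ratio. Among the 14 enriched sgRNAs the finite odds ratios ran from 2.40 to 8.87, and the highest value among those not enriched was 1.99.

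Of 24 other histone chaperones and partners, 1 had at least 2 enriched sgRNAs (18.8% of all genes). This was MMS22L, which with TONSL reads new histones at forks, with 37 sorted reads from 47 unsorted and 76 from 60, and 0 sorted from 54 and 79. Over the list, 10 of 92 sgRNAs were enriched (10.9%, library 20.8%), 52 of 92 were depleted (library share 51.7%) and 67 had 0 sorted reads (72.8%, library 57.6%). For 9 of the 24 genes every listed sgRNA had 0, as for 14.6% of all genes. TONSL had 32, 97, 209 and 363 unsorted reads and 0 sorted reads, and DEK, another H3.3 chaperone, had 68 to 105 unsorted and 0 sorted reads. The list also holds RBBP4, shared by CAF-1 and other complexes, where 1 sgRNA with 6 unsorted and 19 sorted reads was enriched. The 12 sgRNAs against H2AFZ, H2AFV and H3F3C, histone variants that members handle or resemble, included 1 that was enriched and 7 with 0 sorted reads, beside the same library shares.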

How the data were processed

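Guide cassettes were amplified from genomic DNA (24 reactions of 20 cycles, then 15 cycles) and read on a MiSeq. The authors mapped the 20-base guides to the Brunello sequences with Bowtie 1.2.2, allowing 3 mismatches and a single match, and deposited raw counts of reads per sgRNA with library totals. They name no genome build for this, so no coordinates are given. Their deposited odds ratios and p-values were not used.

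Symbols were read from the combined gene field, and 3 repeated entries of 74339 were dropped. The counts sum to the stated totals. All 19 accessions matched RefSeq (GRCh38.p14), used only for names and promoter windows. A two-sided Fisher's exact test was run per sgRNA with Benjamini-Hochberg adjustment over all 74336, after a check on simulated counts. The simulated counts held counting error only, so that check does not cover the wider spread between these libraries. Intervals are exact (Clopper-Pearson) 95% intervals of sorted among all reads of an sgRNA, turned into a ratio. Where a count was 0, "at least" folds come from the limit of that interval, and the fold with 0 set to 3 reads is given beside it. PCR reads carry no molecular identifiers, so intervals and floors cover counting error only.

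The members and lists were chosen with earlier results of these data known. All member genes are named. A further list, of centromere factors, is not reported here. Sequences shown are those of genes with at least 2 enriched sgRNAs, and the most enriched and best covered lost sgRNA of the HIRA complex, ATRX and DAXX, CAF-1, ASF1, FACT, the H3.3 genes and all other genes as 1 group, with additions marked as such. Alternatives were an odds ratio above 1, olfactory receptor scaling, at least 30 unsorted reads, thinning, Bonferroni adjustment, a negative binomial test and a pseudocount of 5. Python 3.11.15, numpy 2.4.6, pandas 2.3.3 and scipy 1.17.1 were used.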

Additional observations from a re-analysis of the deposited data

How the results depend on the processing

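No paired analysis was possible because each population is 1 library. The 14 enriched sgRNAs (library 20.8%) became 19 with an odds ratio above 1 (library 25.5%) and 15 with olfactory receptor scaling (21.3%). With at least 30 unsorted reads they were 13 (21.4% of such sgRNAs in the library). With the unsorted library thinned to the sorted depth they were 16 (20.7%), and with Bonferroni adjustment 11 (17.0%). The negative binomial test left 1 (3.57% of all sgRNAs), CHAF1B sgRNA a. With 0 unsorted reads, that sgRNA could be listed only through its sorted reads, and the test set its unsorted count to 0.5. Depleted sgRNAs, 31 before, were 9 with Bonferroni adjustment (23.5% of all) and 0 with the negative binomial test, where 0% of the library was called. At an unadjusted p under 0.05 that test called 0 of these sgRNAs and 0.0175% of the library depleted. It takes its dispersion, 1.38, from 1457 olfactory receptor sgRNAs. With that spread, the CABIN1 sgRNA with 446 unsorted reads, the most in the set, was not called at 0 sorted reads. The test could therefore call depletion for no sgRNA of the set, and its count of 0 carries no information on loss. Genes with at least 2 enriched sgRNAs, 3 before, were 5 with an odds ratio above 1 (26.0% of all genes) and 3 with olfactory receptor scaling (19.5%). They were 2 with at least 30 unsorted reads (15.3%) and 4 with thinning (18.5%). Bonferroni adjustment left 2 (13.2%), with HIRA at 1 enriched sgRNA. With the negative binomial test there were 0 (0.889%), and 1 gene at an unadjusted p under 0.05. With at least 30 unsorted reads, 29 of 55 sgRNAs had 0 sorted reads, where 54.5% of such sgRNAs in the library did. The other 15 of the 44 had fewer than 30 unsorted reads. The odds ratio above 1, the 30-read limit, Bonferroni adjustment and the negative binomial test kept the odds ratio itself, so they could not turn a direction. Olfactory receptor scaling raised each ratio by close to 1.03-fold, and 0 sorted reads gave a ratio of 0 throughout. Thinning could turn a direction where both counts were above 0. It did so for none of the 22 sgRNAs selected by the rule for showing sequences that had a value. CHAF1B sgRNA a has no value with at least 30 unsorted reads, nor does H3F3B sgRNA b there or with thinning. The median log2 ratio of shares, not used above, was -1.91 with a pseudocount of 0.5 (all sgRNAs, -2.82), 0.34 with 5 (-0.32) and -3.26 with at least 30 unsorted reads (-3.56); equal pseudocounts in libraries of unequal depth raise the ratio of rare sgRNAs. Depth also limits loss: below 31 unsorted reads it could not be called.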
